A study of Mus musculus with 12 samples.

Results

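The enzymes of the tricarboxylic acid (TCA) cycle and of mitochondrial fatty acid oxidation were described in RNA of murine hip cartilage measured on Illumina mouse BeadChips. The 35 genes were chosen by their symbols: 15 of the TCA cycle, 4 enzymes beside it that handle pyruvate, malate and citrate, and 16 of fatty acid oxidation. The TCA cycle group also counts the cytosolic enzymes Idh1, Aco1 and Mdh1, which are not part of the mitochondrial cycle. Of the 35 genes, 31 had a probe in the normalized table (14, 3 and 14 of the groups), with 53 probes among the 21004 of the whole table, which hold 15424 gene symbols. Where a gene had several probes, the one with the highest mean over all arrays stands for it, and a further probe is given where its call or the size of its change differs.

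The 12 arrays came from C57BL6 mice that the labels give as 4 to 6 weeks old. They form 4 groups of 3 arrays each, with control and injured hips of WT and of Mapk9 KO mice. Mapk9 encodes the stress kinase JNK2, and what kind of allele the knockout is was not given in the sources used here. The study's methods give a pool of 6 hips of 3 mice per sample, without mention of the Mapk9 KO arrays. Injury was avulsion of the femoral epiphysis. Control hips were snap-frozen at once and injured hips were first cultured for 4 h in serum-free medium, so injury and culture cannot be told apart in any change given here.

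In the TCA cycle, mitochondria oxidize the acetyl group of acetyl-CoA to carbon dioxide and pass the electrons to the respiratory chain. Fatty acid oxidation supplies that acetyl-CoA: fatty acids are activated, carried into mitochondria as carnitine esters, and shortened step by step by dehydrogenases, a hydratase and thiolases. Heart and oxidative skeletal muscle are rich in these enzymes, whereas articular chondrocytes are known to rely largely on glycolysis.

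Between 16930 and 18969 probes were detected per array (detection p under 0.05 against negative controls). The main Mapk9 probe averaged 10.76 and 10.31 log2 units in WT control and WT injured hips and 9.19 and 8.74 in the Mapk9 KO groups. No Mapk9 KO array reached a WT array there, and the other probe was not detected on any Mapk9 KO array. Of 11 chondrocyte markers in the table all were detected on all 12 arrays, and 7 were higher after injury in WT and 7 in Mapk9 KO (fold above 2 and adjusted p under 0.05 in limma), against 7.51% and 9.01% of all genes. Markers of other tissues were present too: 18 of 25 skeletal muscle genes, but only 1 of 9 adipocyte genes, were detected on every array, and the adipocyte markers Adipoq, Fabp4 and Retn are not in the table.

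Those muscle and adipocyte genes differed strongly between the groups. The mean of the muscle list was 10.35, 9.63 and 11.94 log2 units in WT control hips, 7.22, 8.22 and 9.0 in WT injured hips, 12.19, 12.19 and 11.98 in Mapk9 KO control hips and 7.87, 8.64 and 7.56 in Mapk9 KO injured hips. All injured arrays lay below all control arrays, and the third WT control array was well above the other WT controls. After injury 21 of the 25 muscle genes fell in WT and 25 in Mapk9 KO, against 7.16% and 9.55% of all genes. The adipocyte list averaged 6.66, 6.16 and 8.55 in WT control hips and 7.37, 7.27 and 9.52 in Mapk9 KO control hips, against 5.39 to 5.78 on the injured arrays. The third control array of each genotype thus stood apart from the others of its group. In whole tissue, fewer cells of a type and less RNA per cell cannot be told apart.

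After injury in WT hips, 6 of the 31 enzymes passed the threshold, a fold change above 2 with an adjusted p under 0.05 in limma over all probes, and all 6 were lower. They were the cytosolic Idh1 and the mitochondrial Idh3a of the TCA cycle group and Acadm, Cpt1b, Cpt2 and Acaa2 of fatty acid oxidation. Leaving out 1 array at a time gave 3 to 7, the 3 without the second WT injured array. Over all genes 7.16% were called lower in that comparison and 7.51% higher. In Mapk9 KO hips 12 of the 31 were lower, where 9.55% of all genes were called lower, and again none was higher, where 9.01% of all genes were. These 12 were Idh1, Idh3a and Suclg1 of the TCA cycle, the side enzyme Me2, and Acadm, Acadl, Acads, Acadvl, Hadhb, Cpt1b, Cpt2 and Acaa2 of fatty acid oxidation. With no limit on the fold, 9 were lower in WT (12.7% of all genes) and 21 in Mapk9 KO (20.3% of all genes), and none was higher (12.7% and 18.1% of all genes). At an unadjusted p under 0.05 there were 15 in WT, against 37.2% of all genes, and 23 in Mapk9 KO, against 46.8%. Me1, in the table under its older symbol Mod1, is outside these counts. Its main probe was higher in WT (log2 change 1.16, adjusted p = 0.0216 in limma) and did not pass in Mapk9 KO.

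By sign alone, 28 of the 31 enzymes were negative in WT and 29 in Mapk9 KO, most of them not past the threshold. Over all 15424 genes 7938 and 8170 were negative. All 13 fatty acid oxidation enzymes that were detected on any array had a negative log2 change in both genotypes. With Acat1, which no array detected, the median was -0.60 in WT and -1.20 in Mapk9 KO, and over the 13 it was -0.55 and -1.30. For the TCA cycle 12 of 14 were negative in WT and 13 of 14 in Mapk9 KO, with medians of -0.47 and -0.83. The median over all genes was -0.02 in WT and -0.04 in Mapk9 KO. The injured arrays did not overlap the controls and lay below them for 16 of the 31 enzymes in WT, against 21% of all genes, and for 20 in Mapk9 KO, against 26.5%. They lay above the controls without overlap for 1 enzyme in WT, against 20.5% of all genes, and for none in Mapk9 KO, against 23.7%. Without the third WT control array the WT medians were -0.17 for the TCA cycle and -0.47 for fatty acid oxidation.

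**Figure D1:**
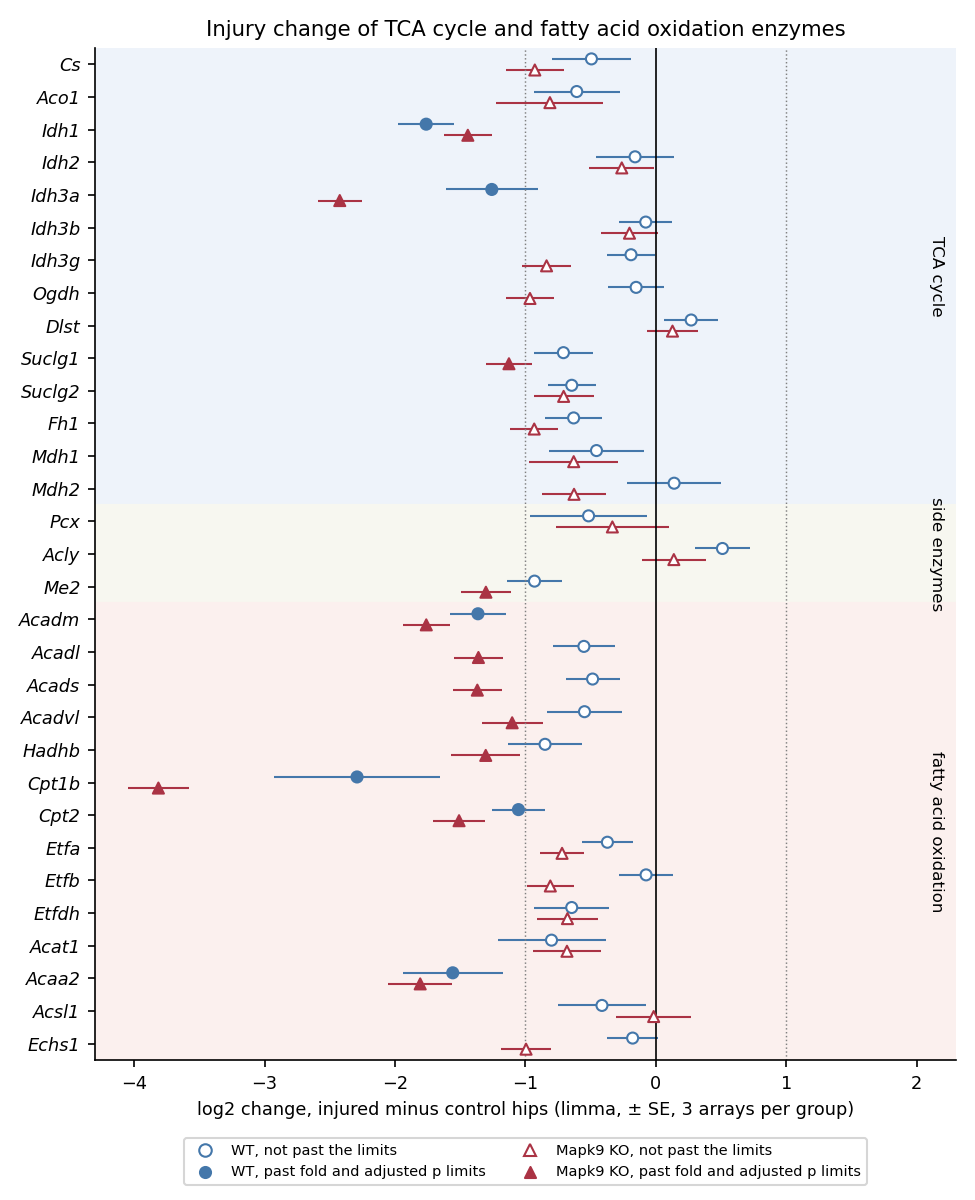
Log2 change from control to injured hips for the main probe of each of the 31 enzymes, in WT (circles) and Mapk9 KO (triangles), with the standard error from limma (3 arrays per group); filled symbols passed the fold and adjusted p limits and dotted lines mark a fold of 2. Nearly all symbols lie left of 0, and Cpt1b lies farthest left in both genotypes, at -2.29 in WT and -3.81 in Mapk9 KO. These are fitted values, as the Cpt1b probe was detected on 1 WT injured array and on no Mapk9 KO injured array.

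Among the isocitrate dehydrogenases the members differed. Idh1, the cytosolic NADP-dependent enzyme, was at 9.85, 9.73 and 9.96 log2 units on the WT control arrays and at 8.23, 7.73 and 8.29 on the WT injured arrays. On the Mapk9 KO arrays it was at 9.78, 10.08 and 9.97 in control hips and at 8.33, 8.42 and 8.74 in injured hips. Every injured array was below every control array, by about the same distance in both genotypes. Idh1 fell 3.39-fold in WT (log2 change -1.76, SE 0.22, adjusted p = 0.000344) and 2.72-fold in Mapk9 KO (-1.44, SE 0.18, adjusted p = 0.000138).

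Idh3a, the catalytic subunit of the mitochondrial NAD-dependent enzyme of the cycle, was at 9.46, 8.89 and 10.52 in WT control hips and at 8.22, 8.51 and 8.37 in WT injured hips. In Mapk9 KO it was at 10.54, 10.64 and 10.64 in control hips and at 8.11, 8.36 and 8.07 in injured hips. The injured arrays of both genotypes were alike, while the WT controls were spread, the third of them close to the Mapk9 KO controls. Its log2 change was -1.26 in WT (SE 0.35, adjusted p = 0.0256) and -2.42 in Mapk9 KO (SE 0.17, adjusted p = 1.93e-06), the latter a 5.37-fold fall. The WT call was lost in 5 of the 6 fits that left out 1 array, and without the third WT control array the change was -0.81. A further Idh3a probe was detected on 1 array, and no fold is given for it. The other subunits did not pass in either genotype: Idh3b was at -0.08 and -0.20, and Idh3g at -0.19 and -0.84, with its further probe at -0.83 and -0.78. Idh2, the mitochondrial NADP-dependent enzyme, was at -0.16 and -0.26.

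Citrate synthase, Cs, which makes citrate from acetyl-CoA and oxaloacetate, was at 10.11, 9.68 and 10.91 in WT control hips and at 9.45, 9.84 and 9.92 in WT injured hips. On Mapk9 KO arrays it was at 10.34, 10.40 and 10.95 in control hips and at 9.33, 9.75 and 9.83 in injured hips. The groups overlapped in WT and not in Mapk9 KO. The log2 change was -0.49 in WT (SE 0.30, adjusted p = 0.27) and -0.93 in Mapk9 KO (SE 0.22, adjusted p = 0.00697), a fold of 1.90 that lay under the fold limit.

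Succinyl-CoA ligase joins the release of coenzyme A to the making of a nucleoside triphosphate. Its alpha subunit Suclg1 was at 11.72, 11.31 and 12.03 in WT control hips and at 10.83, 11.05 and 11.05 in WT injured hips. The Mapk9 KO values were 11.98, 12.12 and 12.08 in control hips and 10.87, 11.18 and 10.75 in injured hips. The injured arrays were below the controls in both genotypes. Suclg1 fell 2.18-fold in Mapk9 KO (log2 change -1.13, SE 0.18, adjusted p = 0.000606), and the WT change of -0.71 (SE 0.23, adjusted p = 0.045) was under the fold limit. Its partner Suclg2, the GDP-forming beta subunit, was at -0.65 in WT and -0.71 in Mapk9 KO, with adjusted p of 0.0274 and 0.0327, also under the fold limit.

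The remaining members of the cycle did not pass the fold limit in either genotype. Ogdh, the oxoglutarate dehydrogenase subunit that takes up the substrate, was at -0.15 in WT and at -0.97 in Mapk9 KO (adjusted p = 0.00191). Dlst, the succinyltransferase of the same complex, was the one member of the cycle above 0 in both genotypes, at 0.27 and 0.13. Fumarase, Fh1, was at -0.63 (adjusted p = 0.0585) and -0.93 (adjusted p = 0.00222). The malate dehydrogenases were at -0.46 and -0.63 for the cytosolic Mdh1 and at 0.14 and -0.63 for the mitochondrial Mdh2. Aco1, the cytosolic aconitase, was detected on 3 arrays and on no injured array, and no fold is given for it. Of the listed members, Sucla2 had no probe in the table, and its 1 probe on the array was not detected on any of the 12 arrays.

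The 3 side enzymes counted did not move as a group, and Me1, outside the counts, is given at the end. Acly, which splits cytosolic citrate to supply acetyl-CoA for lipid synthesis, was at 11.89, 11.68 and 11.62 in WT control hips and at 12.24, 12.51 and 11.97 in WT injured hips. In Mapk9 KO it was at 11.59, 11.97 and 12.59 in control hips and at 12.22, 12.27 and 12.07 in injured hips. In WT the injured arrays lay above the controls without overlap, and in Mapk9 KO the groups overlapped. Neither change passed, with 0.51 in WT (SE 0.21, adjusted p = 0.109) and 0.14 in Mapk9 KO (SE 0.24, adjusted p = 0.7).

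Me2, the mitochondrial NAD-dependent malic enzyme that turns malate into pyruvate, was at 9.27, 9.32 and 8.81 in WT control hips and at 8.13, 8.26 and 8.21 in WT injured hips. On Mapk9 KO arrays it was at 9.34, 9.38 and 9.09 in control hips and at 8.01, 8.20 and 7.69 in injured hips. All injured arrays were below all controls. Me2 was lowest on the third control array in each genotype, where the adipocyte list was highest. It fell 2.47-fold in Mapk9 KO (log2 change -1.30, SE 0.19, adjusted p = 0.000353), and in WT the change of -0.93 (SE 0.21, adjusted p = 0.00946) was just under the fold limit. Pcx, pyruvate carboxylase, was detected on 1 control array of each genotype and on no injured array.

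**Figure D2:**
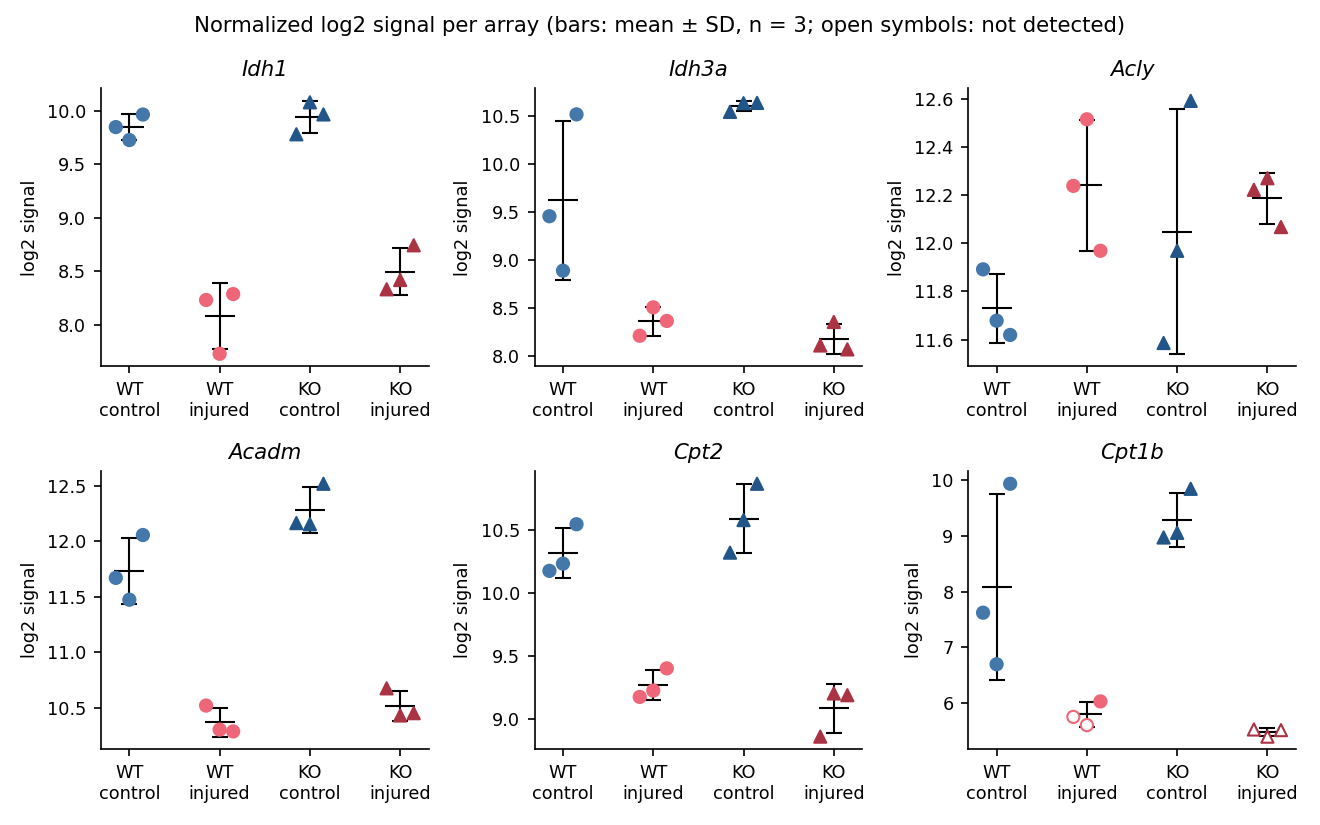
Normalized log2 signal of 6 enzymes on each of the 12 arrays, by group (circles WT, triangles Mapk9 KO; open symbols not detected), with the mean and SD of 3 arrays. For Idh1, Idh3a, Acadm, Cpt2 and Cpt1b all injured arrays lie below all control arrays, Acly shows no such fall, and Idh3a and Cpt1b have the most widely spread WT controls.

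Entry of fatty acids into mitochondria depends on the carnitine palmitoyltransferases. Cpt1b, the isoform of the outer membrane that is typical of muscle, was at 7.62, 6.70 and 9.94 in WT control hips and at 5.75, 5.60 and 6.03 in WT injured hips. The Mapk9 KO values were 8.97, 9.06 and 9.85 in control hips and 5.52, 5.40 and 5.51 in injured hips. It was detected on all 6 control arrays and on 1 injured array, a WT one. In Mapk9 KO the fall was at least 10.8-fold, a bound because no injured array of that genotype detected the probe (fitted log2 change -3.81, SE 0.23, adjusted p = 8.99e-07). In WT the log2 change was -2.29 (SE 0.63, adjusted p = 0.0244), with 1 of 3 injured arrays detected, and it was -1.36 without the third WT control array. The call did not hold without the first or without the second WT injured array. A further Cpt1b probe, detected on 9 arrays, was at -1.46 in WT (adjusted p = 0.0965) and fell by 2.22 in Mapk9 KO (adjusted p = 0.000113). Cpt1a, the isoform of liver and many other tissues, had no probe in the table, and its 2 probes on the array were not detected on any of the 12 arrays.

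Cpt2, the enzyme of the inner membrane that serves both isoforms, was at 10.18, 10.23 and 10.55 in WT control hips and at 9.17, 9.22 and 9.40 in WT injured hips. In Mapk9 KO it was at 10.32, 10.58 and 10.87 in control hips and at 8.86, 9.20 and 9.19 in injured hips. The control and injured arrays were well apart in both genotypes. Cpt2 fell 2.08-fold in WT (log2 change -1.05, SE 0.20, adjusted p = 0.004) and 2.85-fold in Mapk9 KO (-1.51, SE 0.20, adjusted p = 0.00017), and all 3 of its probes passed in both genotypes. Without the third WT control array the WT change was -0.94, under the fold limit. Acsl1, the synthetase that activates long-chain fatty acids, did not pass, at -0.41 in WT and -0.02 in Mapk9 KO.

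The acyl-CoA dehydrogenases take the first step of each round, each for its own range of chain length. The medium-chain enzyme Acadm was at 11.67, 11.47 and 12.06 in WT control hips and at 10.52, 10.30 and 10.29 in WT injured hips. On Mapk9 KO arrays it was at 12.16, 12.15 and 12.52 in control hips and at 10.68, 10.43 and 10.45 in injured hips. Every injured array was well below every control array, and the Mapk9 KO controls were the highest of all. Acadm fell 2.57-fold in WT (log2 change -1.36, SE 0.22, adjusted p = 0.0015) and 3.39-fold in Mapk9 KO (-1.76, SE 0.18, adjusted p = 3.05e-05), and its other probe passed in both genotypes too.

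The main probes of the other dehydrogenases passed in Mapk9 KO and not in WT, and the test of the difference between the genotypes is given with the genotype comparison. Acadl, for long chains, was at 7.38, 7.24 and 7.99 in WT control hips and 7.10, 6.85 and 7.02 in WT injured hips, and at 8.29, 7.81 and 8.19 against 6.85, 6.64 and 6.71 in Mapk9 KO. Acads, for short chains, was at 9.42, 9.49 and 9.47 against 8.84, 9.29 and 8.79 in WT and at 9.43, 9.58 and 9.94 against 8.24, 8.43 and 8.17 in Mapk9 KO. Acadvl, for very long chains, was at 10.11, 9.90 and 11.03 against 9.67, 9.81 and 9.91 in WT and at 10.50, 10.47 and 11.28 against 9.49, 9.72 and 9.73 in Mapk9 KO. The injured arrays lay below the controls in each case but Acadvl in WT, where they overlapped. In Mapk9 KO the log2 changes were -1.36 for Acadl (SE 0.19), -1.37 for Acads (SE 0.19) and -1.10 for Acadvl (SE 0.23), with adjusted p of 0.000224, 0.000242 and 0.00355. In WT they were -0.55, -0.49 and -0.55, with adjusted p of 0.117, 0.116 and 0.195. Further probes differed: for Acads one that no injured array detected fell at least 1.27-fold in WT (adjusted p = 0.0121), and for Acadl one was at -0.47 in Mapk9 KO (adjusted p = 0.252). The further Acadvl probe was at -0.94 in Mapk9 KO, under the fold limit, and the main one did not pass there without the third control array (-0.84).

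After the dehydrogenases come hydration, a further oxidation and the cleavage by thiolase. Echs1, the short-chain hydratase, was at -0.18 in WT and at a 1.99-fold lower level in Mapk9 KO (adjusted p = 0.00191), which stopped just short of the fold limit, and its other probe was at -0.07 there. Hadhb, the thiolase subunit of the trifunctional protein, was at 9.44, 9.27 and 10.35 in WT control hips and at 8.65, 8.97 and 8.90 in WT injured hips. The Mapk9 KO values were 9.68, 10.10 and 10.86 in control hips and 8.95, 8.89 and 8.89 in injured hips. The third control array was the highest in each genotype, as for the adipocyte list. Hadhb fell 2.47-fold in Mapk9 KO (log2 change -1.30, SE 0.27, adjusted p = 0.00289), but the change there was -0.98 and did not pass without that array. In WT it was -0.85 (SE 0.28, adjusted p = 0.0513). Hadha, its partner subunit, had no probe.

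Acaa2, the thiolase of the mitochondrial matrix, was at 9.57, 8.58 and 10.11 in WT control hips and at 8.33, 7.30 and 7.97 in WT injured hips. In Mapk9 KO it was at 10.00, 9.81 and 10.60 in control hips and at 8.65, 8.02 and 8.31 in injured hips. In each genotype the groups did not overlap, although the lowest WT control array was below the highest Mapk9 KO injured array. Acaa2 fell 2.94-fold in WT (log2 change -1.56, SE 0.38, adjusted p = 0.0145) and 3.50-fold in Mapk9 KO (-1.81, SE 0.24, adjusted p = 0.000202). The WT call was lost without the first control array (-1.48) and without the second injured array (-1.27). Its 4 probes passed in both genotypes save 1 that was at -0.96 in WT. Acat1, the thiolase that also serves ketone bodies, was not detected on any of the 12 arrays. The electron transfer flavoprotein subunits and Etfdh, which hand the electrons on to ubiquinone, did not pass the fold limit: Etfa was at -0.37 and -0.72, Etfb at -0.08 and -0.81 and Etfdh at -0.65 and -0.68 in WT and Mapk9 KO.

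Promoters in RefSeq (GRCm38.p6, 250 bases before to 50 after the gene start) were searched for AGGTCA on both strands, the half-site of nuclear receptors such as the PPAR and ERR families, which are known regulators of fatty acid oxidation genes. Of the 35 genes 30 had a promoter there, and 10 of them held the motif, against 18.1% of the 27025 genes with a promoter there and 16.3% of all 32851 promoters. Of the 12 genes that fell in Mapk9 KO or WT hips 8 had a promoter and 2 held it, Acadm and Acadvl. The stretches around it are shown for both, and for Acly, which did not fall, with the motif or its reverse complement in capitals:
Acadm (chr3:153944860-153944893, minus strand): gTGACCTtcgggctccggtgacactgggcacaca
Acadvl (chr11:70015483-70015542, minus strand): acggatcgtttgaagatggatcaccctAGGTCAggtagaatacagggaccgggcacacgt
Acly (chr11:100528008-100528067, minus strand): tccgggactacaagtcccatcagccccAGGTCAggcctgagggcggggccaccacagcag
The motif ended 243 bases before the start in Acadm, 81 in Acadvl and 34 in Acly. Binding was not measured, and a match describes the letters only.

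Other genes of the same pathways were counted in the same way. Of 10 other TCA cycle genes in the table none passed in WT and 3 were lower in Mapk9 KO, where 7.16% and 9.55% of all genes were lower, among them the succinate dehydrogenase subunits Sdhb (log2 change -1.59, SE 0.22) and Sdhc (-1.26, SE 0.17). Of 17 other fatty acid oxidation genes 2 were lower in WT and 5 in Mapk9 KO, against the same shares of all genes. Crat, which transfers acetyl groups to carnitine, had log2 changes of -1.06 in WT and -2.02 in Mapk9 KO. The acyl-CoA synthetase gene Acsl6 fell at least 2.03-fold in WT, where no injured array detected it, and its log2 change in Mapk9 KO was -1.49. In that genotype the changes were -1.84 for Decr1 and -1.07 for Eci1, both needed for unsaturated chains, and -1.03 for Hsd17b4, of peroxisomal oxidation. The median of these 17 genes was -0.40 in WT and -0.52 in Mapk9 KO.

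Of 14 genes that regulate these pathways or handle fatty acids, 5 fell in WT and 8 in Mapk9 KO, where 7.16% and 9.55% of all genes did, and 1 rose in each, where 7.51% and 9.01% did. The one that rose was Ppard, the nuclear receptor PPAR delta, with a log2 change of 1.42 in WT (SE 0.29, adjusted p = 0.00554) and 1.37 in Mapk9 KO (SE 0.18, adjusted p = 0.000175). The coactivator gene Ppargc1b had log2 changes of -2.17 in WT (SE 0.24) and -2.93 in Mapk9 KO (SE 0.18), and Ppargc1a, detected on the control arrays only, fell at least 1.90-fold and 3.65-fold. For Lpl, which frees fatty acids from lipoproteins, they were -1.87 and -2.84, and for Fabp3, the fatty acid binding protein of heart and muscle, -2.32 and -4.74. Several of these genes are known to be abundant in muscle or fat, whose markers fell as well, with 2 of 9 adipocyte genes in WT and 6 of 9 in Mapk9 KO.

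The genotypes were then compared. In control hips none of the 31 enzymes differed between Mapk9 KO and WT (0.0778% of all genes were lower and 0.0324% higher), although 30 of 31 had a higher mean in Mapk9 KO, as had 7418 of all 15424 genes, and the median difference was 0.35, against -0.01 for all genes. At an unadjusted p under 0.05 in limma there were 4, against 6.38% of all genes. In injured hips none differed either (0.0973% lower and 0.0713% higher), with 3 at an unadjusted p under 0.05 against 10.9%, and the median difference was -0.05. With the replicate numbers as a block none of the 31 differed in injured hips, where 0.143% of all genes were lower and 0.434% higher, and 8 had an unadjusted p under 0.05, against 19.1% of all genes. The muscle list was at 11.98 to 12.19 in Mapk9 KO control hips and at 9.63 to 11.94 in WT control hips. These comparisons use the same arrays as the injury comparisons.

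No enzyme, and no probe of the whole table, passed the test of a different injury change in the genotypes without a block (limma interaction, adjusted p under 0.05). With the replicate numbers as a block 112 of the 21004 probes passed, with a more negative change in Mapk9 KO for 0.0454% of all genes and a more positive one for 0.395%, but again none of the 31 enzymes did (smallest adjusted p = 0.112). At an unadjusted p under 0.05 there were 9 enzymes with the block, against 14.5% of all genes. At an unadjusted p under 0.05 without the block there were 7 of 31 enzymes against 8.81% of all genes. The larger falls in Mapk9 KO were therefore not shown to differ from those in WT. The 7 were Idh3a, with a difference of -1.17 log2 units (SE 0.42), Idh3g (-0.65), Ogdh (-0.81), Acadl (-0.81), Acads (-0.88), Etfb (-0.73) and Echs1 (-0.82), and the smallest adjusted p among the 31 was 0.328. Further probes detected on every array did not show the same for 3 of the 7: the difference was 0.05 for Idh3g (unadjusted p = 0.908), 0.39 for Acadl (0.488) and 0.33 for Echs1 (0.252). The further Etfb probe was at -0.82 (0.0142), and those of Idh3a and Acads were not detected on any injured array. Without the third WT control array, the one with the high muscle list, Idh3a (-1.61, SE 0.27, adjusted p = 0.01) and Cpt1b (-2.45, SE 0.40, adjusted p = 0.00799) passed, as 1.04% of all genes did in that direction (0.117% did in the other). The Cpt1b probe was detected on 1 of the 6 injured arrays, so the size of its difference is not a measured one. Without the third WT control array both were also higher in Mapk9 KO than in WT control hips. The difference was 1.43 for Idh3a (adjusted p = 0.0108) and 2.13 for Cpt1b (adjusted p = 0.00796), where 1.72% of all genes were called higher and 0.259% lower.

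The enzymes were then set against the muscle list across arrays. The mean of the 14 fatty acid oxidation enzymes was 9.47, 9.24 and 10.06 log2 units in WT control hips and 9.91, 9.89 and 10.39 in Mapk9 KO control hips. On the injured arrays it was 8.85, 8.65 and 8.86 in WT and 8.79, 8.79 and 8.78 in Mapk9 KO. The injured arrays were thus close together for this mean, while the muscle list ran from 7.22 to 9.0 over them. The mean includes Acat1, which no array detected, and Cpt1b, detected on 1 injured array. Single enzymes could differ more, as Acsl1 averaged 8.95 in WT injured and 9.70 in Mapk9 KO injured hips. The TCA cycle mean was 9.65, 9.45 and 10.13 in WT control hips, 9.08, 9.35 and 9.36 in WT injured hips, 9.74, 10.08 and 10.31 in Mapk9 KO control hips and 9.01, 9.32 and 9.27 in Mapk9 KO injured hips. Among the WT controls both means were highest on the third array, as the muscle list was, but the third Mapk9 KO control array was highest for both enzyme lists and lowest for muscle.

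**Figure D3:**
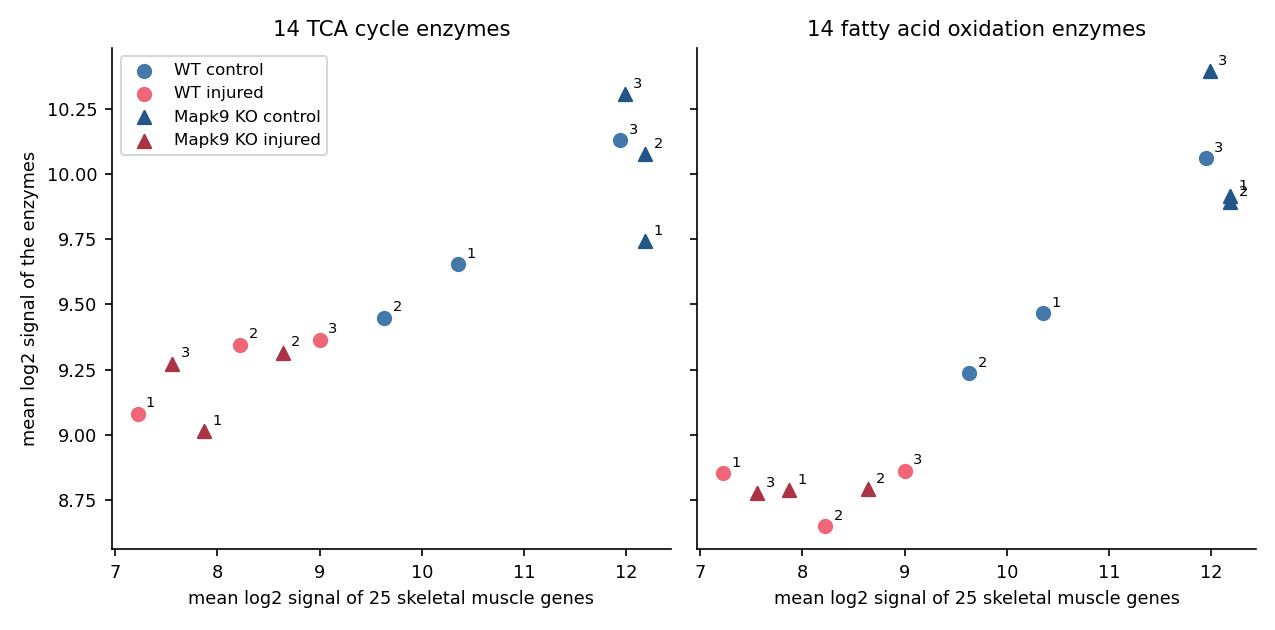
Mean log2 signal of the 14 TCA cycle and the 14 fatty acid oxidation enzymes on each array against the mean of 25 skeletal muscle genes; symbols and colors give the group and small digits the replicate number. Control arrays lie to the upper right of the injured arrays in both panels, and among the 6 injured arrays the fatty acid oxidation mean stays between 8.65 and 8.86.

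To follow muscle genes within groups, each probe was fitted on the muscle list with the 4 groups as fixed effects, which leaves out the injury change itself. The fit carries no replicate term. On the deposited values no main probe of the 31 enzymes passed (adjusted p under 0.05, limma), whereas 0.739% of all genes had a positive slope that did and 0.0195% a negative one. At an unadjusted p under 0.05 there were 7, against 8.9% of all genes. The slope, in log2 units of the enzyme per log2 unit of the list mean, had a median of 0.21 for the TCA cycle, 0.17 for fatty acid oxidation and -0.03 for all genes. It was steepest for Cpt1b, at 0.79 (SE 0.22, adjusted p = 0.228), followed by Mdh2 at 0.48 (SE 0.14) and Idh3a at 0.45 (SE 0.11, adjusted p = 0.131). The call depended on the normalization: after quantile normalization alone Cs, Idh3a, Suclg1, Mdh2 and Cpt1b had a positive slope that passed (adjusted p from 0.00409 to 0.0315), where 1.58% of all genes did and 0.169% had a negative one. With normexp correction before it, Idh3a, Suclg1, Mdh2 and Cpt1b passed (adjusted p from 0.0218 to 0.0492), where 1.15% did and 0.0519% had a negative one. On the deposited values the further Cpt1b probe passed, at 0.88 (adjusted p = 0.034). Without the first WT injured array the main Cpt1b probe passed too (1.05, adjusted p = 0.0479), and without the third WT injured array Idh3a did (0.57, adjusted p = 0.0341).

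The main probes of several enzymes that fell after injury had slopes near 0 on muscle. They were 0.03 for Idh1, -0.05 for Me2, 0.02 for Acads, 0.08 for Acadm and 0.12 for Cpt2, with standard errors of 0.10 to 0.11. Further probes had larger slopes in part, at 0.31 for Acads (SE 0.15, detected on 5 arrays), 0.29 for Acadm (SE 0.15) and 0.14 and 0.26 for Cpt2 (SE 0.10 and 0.14), and none of these passed. By contrast Cs, Idh2, Mdh1 and Suclg1 were at 0.37, 0.34, 0.38 and 0.25, although of these only Suclg1 passed after injury, in Mapk9 KO. On the adipocyte list 3 enzymes of fatty acid oxidation had a positive slope that passed, against 0.253% of all genes (0.00648% had a negative one): Acsl1 (0.53, SE 0.09, adjusted p = 0.0317), Hadhb (0.45, SE 0.08, adjusted p = 0.0427) and Acadvl (0.42, SE 0.07, adjusted p = 0.0317). No TCA cycle enzyme passed there, with 0.16 as the median slope against 0.19 for fatty acid oxidation and -0.04 for all genes. The calls rested on the third control array of each genotype. Without both no gene of the table passed and the standard errors were several times larger, with slopes of -0.11 for Acsl1 (SE 0.59), 0.16 for Hadhb (SE 0.54) and 0.49 for Acadvl (SE 0.49).

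**Figure D4:**
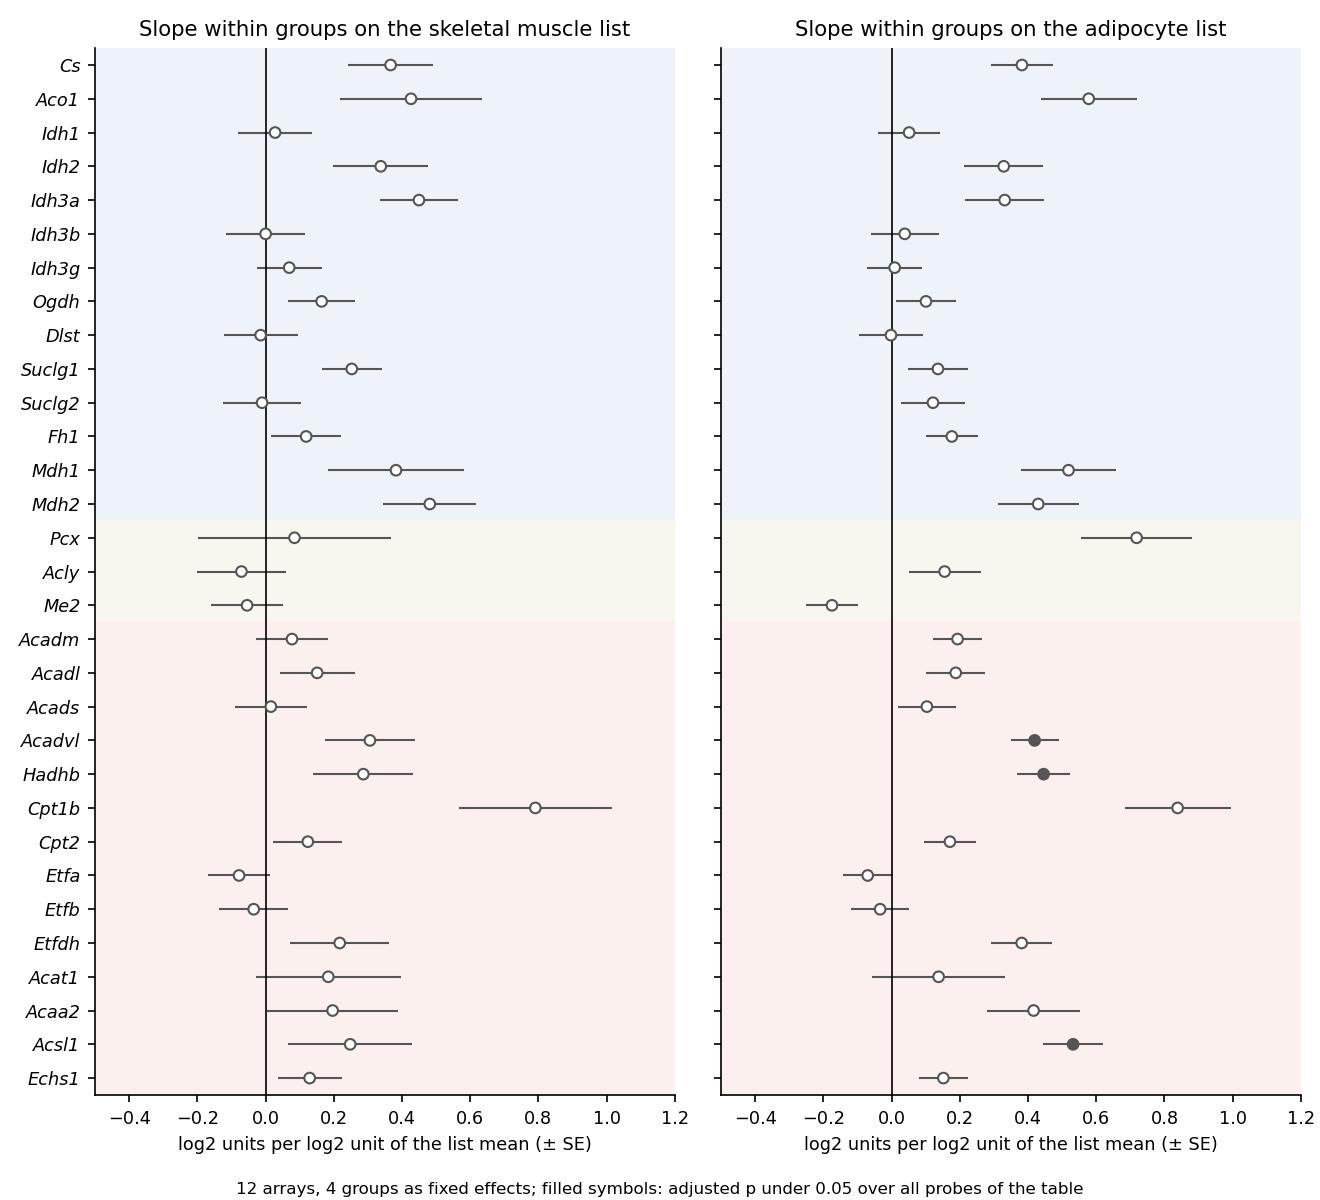
Slope of each enzyme's main probe on the mean of the skeletal muscle list (left) and of the adipocyte list (right), in log2 units per log2 unit, with SE, from limma on 12 arrays with the groups as fixed effects; filled symbols have an adjusted p under 0.05. Cpt1b has the steepest slope on both lists (0.79 and 0.84), Idh1 lies near 0 on both, and Acadvl, Hadhb and Acsl1 are filled on the right.

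With the muscle list as a covariate in the injury fit over all 12 arrays, Idh1 (log2 change -1.69, SE 0.33, adjusted p = 0.00585) and Acadm (-1.17, SE 0.32, adjusted p = 0.0313) were still lower in WT, where 6.26% of all genes were, and none was higher, where 6.08% were. The other Acadm probe did not pass with it (-0.33, adjusted p = 0.699). Cpt1b was then at -0.32, Idh3a at -0.14, Cpt2 at -0.74 and Acaa2 at -1.07, none of which passed, and the medians were 0.11 for the TCA cycle and -0.25 for fatty acid oxidation. In Mapk9 KO no enzyme passed with that covariate, where 2.13% of all genes were lower and 2.97% higher, and Acadm was at -1.44, Me2 at -1.53, Idh1 at -1.33 and Acads at -1.31, close to their changes without it, although the other Acadm probe was at -0.51. Acadl was at -0.74, and Cpt2 and Acaa2 were both at -1.0. Others that had passed were much closer to 0 with it: Cpt1b was at -0.57, Idh3a at -0.58, Suclg1 at -0.09, Hadhb at -0.13 and Acadvl at 0.15. There the muscle list ranged from 11.98 to 12.19 in control hips and from 7.56 to 8.64 in injured hips. List and injury were thus nearly the same variable, and the median SE rose from 0.22 to 0.52. The covariate fit is the same model as the slope fit, so these values restate the slopes and are no separate result. Its slope is shared by the 4 groups, and the SD of the list was 0.12 in Mapk9 KO control and 1.18 in WT control hips. With the adipocyte list as covariate Idh1 (-1.69), Me2 (-1.17) and Acadm (-1.09) were lower in WT, as were 7.55% of all genes, and none was higher, as 7.59% were. The other Acadm probe was at -0.46 and did not pass. In Mapk9 KO 7 enzymes were lower with it, against 11.9% of all genes, and Acsl1 was higher (1.35, SE 0.29, adjusted p = 0.00579), as were 9.01%. With both lists together Idh1, Me2 and the main Acadm probe were lower in WT, where 7.26% of all genes were, and Mdh2 was higher (1.37, adjusted p = 0.021), where 6.59% were. In Mapk9 KO only Me2 passed with both, lower (-1.61, SE 0.41, adjusted p = 0.0369), where 3.71% of all genes were lower and 3.62% higher.

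Markers of the remaining cell types were compared as well. The erythroid list averaged 11.75 to 12.36 on control arrays and 11.47 to 11.80 on injured arrays, and the list for osteoblasts and osteoclasts 10.88 to 11.27 and 10.01 to 10.76. The mean of the macrophage list was at 9.04 to 9.38 and 9.22 to 9.50, but its median was at 9.02 to 9.46 and 8.20 to 8.60. Of its 7 genes 3 fell and 1 rose in WT and 4 fell and 1 rose in Mapk9 KO. Over all genes 7.16% and 9.55% fell and 7.51% and 9.01% rose. Of 7 osteoblast and osteoclast genes 3 fell in WT and 4 in Mapk9 KO, and of 10 erythroid genes 2 and 1. Of 8 neutrophil genes 2 rose in WT and 1 in Mapk9 KO, and of 8 endothelial genes 1 rose in WT. The endothelial list was at 8.98 to 9.46 and 9.01 to 9.46, and the neutrophil list at 12.66 to 13.50 and 13.26 to 13.79. The chondrocyte list was at 10.98 to 11.70 on control arrays and at 12.55 to 12.86 on injured arrays. The part of these cell types in the changes of the enzymes was not tested.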

How the data were processed

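RNA from 12 samples, each pooled from several hips, was measured on Illumina mouse BeadChips. The deposited bead intensities cover 45281 probes and are not normalized. Beside each intensity stands a deposited detection p-value, whose steps are 1 in 936. Before deposit the authors subtracted background by negative controls and applied vsn, which gives log2 values, deposited for 21004 of the probes, with no versions given. Groups and replicate numbers were taken from the labels. The study's methods give the age as 5 to 6 weeks. They state 3 biological replicates per group for control and injured cartilage and do not mention the Mapk9 KO arrays. The number of arrays limits the precision.

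Each probe was tested on the deposited log2 values with limma 3.58.1 in R 4.3.3 (lmFit and eBayes), and p-values were adjusted by Benjamini-Hochberg across the 21004 probes. The injury change was fitted within WT and within Mapk9 KO, genotype within control and within injured hips, and the interaction over all 12 arrays. A call needed a fold above 2 and an adjusted p under 0.05, the threshold of the study, and for the interaction and the slopes the adjusted p alone. Slopes and covariate fits used the mean of the main probes of a marker list. Where no array of a group detected a probe, the fold is a bound, set against the lowest log2 value among detected probes of each array. Levels of different probes were not compared. All enzymes are named, by role, and those past the threshold in either genotype, with Cs, Cpt1b and Acly, are given array by array. Other pathway genes are named from those past the threshold. A gene counted among them is not reported here.

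Members, lists and tests were chosen with earlier results of these data known. The covariate fits with both lists, and the fits without the third arrays, were chosen after seeing the data. Replicate numbers were checked for pairing: deviations from the group means correlated at 0.153 to 0.39 for the 18 pairs of arrays with the same number and at -0.289 to 0.083 for the 36 other pairs, so the numbers were taken to pair the arrays. The main fits, the slopes and the covariate fits nevertheless carry no replicate term, and the replicate block is an alternative. No 2 arrays held identical values (correlations between arrays 0.868 to 0.986). The fits were tested on simulated data. Alternatives were background correction and normalization, detection filters, blocks by replicate and by label code number, a methods' t-test, the mean of all probes of a gene, and leaving out each array. Promoter sequences are RefSeq's, and probe coordinates are not given because the build is not named.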

Additional observations from a re-analysis of the deposited data

Results flagged for a closer look

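A probe for Mdh1 outside the normalized table, 1 of 11 such probes for the listed enzymes, was detected on 1 injured array and on no control array. The other 10 were not detected on any array. The Mdh1 probe in the table was detected on all 12 arrays. Why the probe outside it was detected once was not tested.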

How the results depend on the processing

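The replicate block changed no call among the 31 enzymes: 6 were lower in WT and 12 in Mapk9 KO with the replicate block too, and 0 passed for the genotype comparisons and the interaction, the smallest adjusted p for the interaction being 0.112. Over the whole table the block moved the interaction from 0 to 112 probes and genotype in injured hips from 38 to 188. Array medians, a filter on detection on at least 3 arrays, all 12 arrays in 1 fit and the label code number as block also left both injury counts at 6 and 12, and with probes detected on all 12 arrays, which leaves out Cpt1b, they were 5 and 11. Quantile normalization alone lost Idh3a and Cpt1b in WT and Acadl in Mapk9 KO, normexp with it added Echs1 in Mapk9 KO, and the mean of all probes lost Idh3a in WT and Acadl in Mapk9 KO. The methods' t-test gave 3 enzymes lower in WT, without Idh3a, Cpt1b and Acaa2, and 10 in Mapk9 KO, without Acadvl and Hadhb. The share of all genes under that test is not given, so its counts are set only against the 6 and 12. With no limit on the fold 21 were lower in Mapk9 KO. With the muscle list as covariate 2 were lower in WT and 0 in Mapk9 KO, and the medians in WT were 0.11 for the TCA cycle, a reversal, and -0.25 for fatty acid oxidation, and in Mapk9 KO -0.15 and -0.66. With the adipocyte list 3 were lower in WT, 7 lower and 1 higher in Mapk9 KO, and the medians were -0.017 (TCA cycle) and -0.31 (fatty acid oxidation) in WT and -0.25 and -0.81 in Mapk9 KO. With both lists 3 were lower and 1 higher in WT (Mdh2) and 1 lower in Mapk9 KO, with medians of 0.11 and -0.21 in WT and -0.13 and -0.54 in Mapk9 KO. Among the 12 enzymes called in Mapk9 KO the sign turned for Acadvl with the muscle list (0.15) and both lists (0.31) and for Hadhb with both (0.050), and Acsl1 turned to a higher call with the adipocyte list (1.35). Of enzymes with no call either way, the sign turned in Mapk9 KO for 10 with the muscle list, 7 with the adipocyte list and 10 with both, and in WT for 8 with each. Muscle slopes passed for 4 enzymes after normexp correction with quantile normalization (1.15% of all genes), for 5 with quantile normalization alone (1.58%), and for 3 with the adipocyte list in place of muscle (0.253%). The cause of these differences was not tested.

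Leaving out 1 array at a time gave 3 to 7 enzymes lower in WT, the 3 without the second WT injured array, and 10 to 17 in Mapk9 KO, the 17 without the first Mapk9 KO control array. The medians ranged from -0.66 to -0.17 (TCA cycle) and from -0.83 to -0.47 (fatty acid oxidation) in WT, and from -0.98 to -0.65 and from -1.30 to -0.93 in Mapk9 KO. Higher calls for genotype in control hips ranged from 0 to 2 and lower interaction calls from 0 to 2, the 2 being Idh3a and Cpt1b without the third WT control array. Muscle slope calls ranged from 0 to 1. The other counts were 0 throughout.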

Other observations

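The malic enzyme gene Me1, a source of NADPH for lipid synthesis in the cytosol, was on the list of side enzymes but appears in the table under its older symbol Mod1, which the symbol rule did not take, so it is in none of the counts. Its main probe averaged 7.27 in WT control and 8.43 in WT injured hips and rose 2.23-fold (limma, log2 change 1.16, SE 0.31, adjusted p = 0.0216). In Mapk9 KO the means were 8.14 and 8.75 and the change of 0.61 did not pass (SE 0.41, adjusted p = 0.273). The other Mod1 probe did not pass in WT (0.84, adjusted p = 0.069) or in Mapk9 KO (0.75, adjusted p = 0.238). With the adipocyte list as covariate the main probe was higher in WT (2.06, adjusted p = 0.000101) and in Mapk9 KO (2.27, adjusted p = 0.000511). With the muscle list it did not pass (1.88 and 1.79), and with both lists it passed in both genotypes (1.94 and 2.08). The mitochondrial Me2 had the opposite sign in both genotypes.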
